A study of Rattus norvegicus with 4 samples.

Results

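The genes studied here encode the receptors and ligands of platelet-derived growth factor (PDGF). They were taken by name from the table of expression values: of 6 genes sought (Pdgfra, Pdgfrb, Pdgfa, Pdgfb, Pdgfc and Pdgfd), 4 had a row among the 14410 genes listed, namely the receptor gene Pdgfra and the ligand genes Pdgfa, Pdgfb and Pdgfc. Pdgfrb and Pdgfd were not analysed here. The cells were CG4, a single rat line of glial progenitors that can mature into oligodendrocytes, which wrap axons of the brain and spinal cord in myelin. The Phf8oe cells had received a retrovirus in which the CAG promoter, active in most cell types, drives Phf8 together with GFP; the ctrl cells had received the same kind of virus with GFP alone. Phf8 is a histone lysine demethylase. Both groups were on a wild-type background, were sorted for GFP, expanded in culture and kept for 3 days in differentiation medium, and each group was sequenced as 2 replicates. The labels call the replicates biological but do not say whether each had its own transduction, so a p-value speaks only to the spread among these 4 preparations.

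PDGF ligands are secreted dimers. The dimer of the Pdgfa product, PDGF-AA, binds only the alpha receptor, which Pdgfra encodes, whereas the Pdgfb product binds both receptor types, and the Pdgfc product acts mainly through the alpha receptor after a protease has cut away its CUB domain. In the developing brain and spinal cord Pdgfra is the defining surface receptor of oligodendrocyte progenitors: PDGF-AA keeps these cells dividing and alive, and the receptor is lost as they mature. CG4 cells are commonly grown in PDGF-AA and basic FGF for the same reason, and the change to differentiation medium commonly takes both away.

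The values are read counts per gene that had been divided by a scaling factor for each library and rounded, called normalized counts below. They summed to between 40260658 and 41149255 in the Phf8oe libraries and to between 39945215 and 40336248 in the ctrl libraries. The estimated reads behind them were about 43100000 and 28400000 in Phf8oe replicates 1 and 2, and 47800000 and 39300000 in ctrl replicates 1 and 2. Phf8 itself had 5650 and 10796 normalized counts in the Phf8oe libraries, against 2026 and 2205 in the ctrl libraries. Both Phf8oe libraries lay above both ctrl libraries, but they also lay far apart from each other, and the log2 fold change of 1.89 (SE 0.35) did not pass in limma (Benjamini-Hochberg adjusted p = 0.0631). It passed in 4 of 16 alternatives, among them the fit without robust moderation (adjusted p = 0.0194), and ranged from 1.42 to 2.35 with 1 library left out.

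The sequence just before the start of 3 of the genes is shown because the 3 differ in their number of CG dinucleotides, each in capitals. The sequences are from RefSeq on the GRCr8 assembly, 5′ to 3′ on the strand of the gene, and cover the 150 bases before its first annotated base. The counts themselves were made on another build. The intervals are chr14:33408605-33408754 on the minus strand for Pdgfra, chr12:20759216-20759365 on the plus strand for Pdgfa, and chr7:113438344-113438493 on the minus strand for Pdgfb.
Pdgfra: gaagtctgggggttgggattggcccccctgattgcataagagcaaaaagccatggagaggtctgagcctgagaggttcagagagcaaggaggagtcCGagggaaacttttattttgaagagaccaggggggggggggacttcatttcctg
Pdgfa: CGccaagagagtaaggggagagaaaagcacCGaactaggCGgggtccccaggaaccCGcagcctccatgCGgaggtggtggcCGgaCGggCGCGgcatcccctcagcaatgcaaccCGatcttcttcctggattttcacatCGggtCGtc
Pdgfb: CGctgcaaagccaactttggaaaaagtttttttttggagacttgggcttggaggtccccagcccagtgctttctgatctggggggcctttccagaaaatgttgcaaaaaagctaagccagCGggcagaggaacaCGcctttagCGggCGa

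The stretch before Pdgfra holds 1 CG, that before Pdgfa 12 and that before Pdgfb 5. Over the tabulated promoter of 300 bases (250 before to 50 after a start site), Pdgfra had 5 CG dinucleotides, against 17 for Pdgfa and 22 for Pdgfb. The tabulated window of Pdgfc lies inside the annotated gene, so it is neither shown nor compared. The median over 33469 tabulated rat promoters was 7, so Pdgfra lay below it, with 38% of promoters holding fewer, and Pdgfa and Pdgfb lay above it. In the same windows, searched on both strands, the GC box GGGCGG occurred in Pdgfa and Pdgfb and in 33.1% of all promoters, the CCAAT box CCAAT in Pdgfra only of these 3 genes and in 37.5% of all, and the AP-1 motif TGANTCA in Pdgfra only of these 3 genes and in 7.33% of all. The E-box CANNTG, present in 72.1% of promoters, was found in Pdgfra and Pdgfa, and the TATA box TATAAA, present in 14.2%, in none of the 3.

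Pdgfra fell in Phf8oe. It had 10250 and 9286 normalized counts in the Phf8oe libraries, against 18113 and 17240 in the ctrl libraries. The groups did not overlap, Phf8oe lying lower, as for 28.7% of all genes tested (57.6% in either direction). The replicates of each group stood close together. The means were 9768 ± 682 in Phf8oe and 17676 ± 617 in ctrl (SD, n = 2 each), a 1.81-fold fall (log2 fold change -0.86, SE 0.1, 95% interval -1.09 to -0.62). In limma on log2(normalized count + 1), adjusted over all 14368 genes tested by the Benjamini-Hochberg method, the adjusted p was 0.00361. The receptor gene was the 70th of those genes by p, and 309 of the 668 genes called lower fell by at least as much. Its libraries rested on an estimated 6558 to 21448 reads each, so that counting error was small beside the difference: the 95% Poisson intervals spanned 10057 to 10446 and 9063 to 9514 normalized counts in Phf8oe replicates 1 and 2, and 17871 to 18357 and 16981 to 17502 in ctrl replicates 1 and 2. These intervals cover counting error only. Without ctrl replicate 1, which leaves the Phf8oe pair as the sole measure of spread, the log2 fold change was -0.82 and the call was lost (adjusted p = 0.101).

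**Figure D1:**
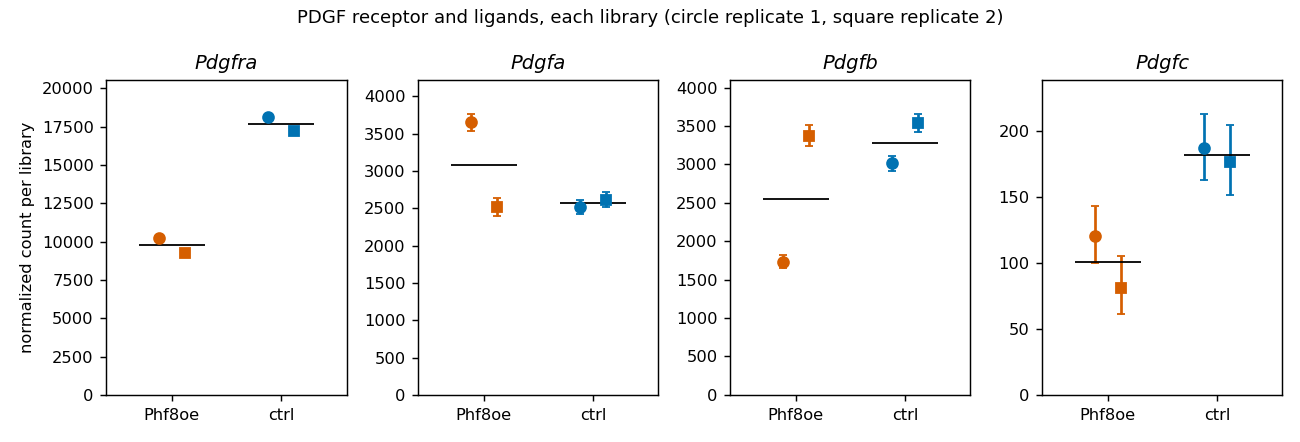
Normalized counts of Pdgfra, Pdgfa, Pdgfb and Pdgfc in each library, on a linear axis from 0; points are libraries (circle replicate 1, square replicate 2), error bars are 95% Poisson counting intervals and black bars are group means. Pdgfra lies at 10250 and 9286 in Phf8oe and at 18113 and 17240 in ctrl, Pdgfc is lower in both Phf8oe libraries, and for Pdgfa and Pdgfb the Phf8oe libraries lie apart from each other and overlap ctrl.

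Pdgfa, the gene of the ligand that growth medium for CG4 cells commonly supplies as protein, had 3654 and 2519 normalized counts in the Phf8oe libraries, against 2521 and 2614 in the ctrl libraries. Phf8oe replicate 1 was the high library, and Phf8oe replicate 2 stood level with ctrl. The means were 3086 ± 803 in Phf8oe and 2568 ± 65.8 in ctrl (SD, n = 2 each), and the log2 fold change of 0.24 did not pass (95% interval -0.17 to 0.65, limma adjusted p = 0.422). The interval allows anything between a level 0.89 times and a level 1.57 times that of ctrl.

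Pdgfb, whose product can bind both receptor types, had 1735 and 3374 normalized counts in the Phf8oe libraries, against 3015 and 3543 in the ctrl libraries. Here Phf8oe replicate 1 was the low library, and replicate 2 lay between the ctrl libraries. The means were 2554 ± 1159 in Phf8oe and 3279 ± 373 in ctrl (SD, n = 2 each). The log2 fold change of -0.43 did not pass (95% interval -1.48 to 0.61, limma adjusted p = 0.532).

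Pdgfc, the ligand gene whose product is made in latent form, had 120 and 81 normalized counts in the Phf8oe libraries, against 187 and 176 in the ctrl libraries. The groups did not overlap, Phf8oe lying lower, which also held for 28.7% of all genes tested (57.6% in either direction). The means were 100.5 ± 27.6 in Phf8oe and 182 ± 7.78 in ctrl (SD, n = 2 each). The log2 fold change of -0.87 (SE 0.25, 95% interval -1.44 to -0.31) was as large as that of Pdgfra but did not pass after adjustment (limma adjusted p = 0.0643). Only an estimated 126 and 57 reads in Phf8oe replicates 1 and 2, and 221 and 173 in ctrl replicates 1 and 2, lay behind these values. The counting intervals of Phf8oe replicate 1 (99.9 to 143) and replicate 2 (61.4 to 105) overlapped each other, and neither reached that of ctrl replicate 1 (163 to 213) or ctrl replicate 2 (151 to 204).

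All 4 members passed the filter on low values, which asked for at least 10 normalized counts in at least 2 libraries. Of the 4, 1 was called, lower in Phf8oe, and 3 were not; of all genes tested 7.64% were called, 2.99% higher and 4.65% lower. With so few members the count is a description of these genes and no more. Limma-voom on the estimated reads called the same 1 of the 4.

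Within Phf8oe the replicates lay further apart for each ligand gene than for the receptor gene. Pdgfb differed 1.94-fold between the Phf8oe replicates, a wider gap than in 498 of the 500 genes nearest to it in mean log2 level, and Pdgfa differed 1.45-fold, wider than in 482 of its 500. The directions were opposite, Pdgfa being higher and Pdgfb lower in replicate 1. Pdgfc differed 1.48-fold between the Phf8oe replicates (wider than in 405 of 500) and Pdgfra 1.1-fold (wider than in 279 of 500). Between the ctrl replicates the folds were 1.05 for Pdgfra, 1.04 for Pdgfa, 1.18 for Pdgfb and 1.06 for Pdgfc. Of the 4, Pdgfb was therefore the least repeatable in both groups. The Phf8oe library with less Phf8, replicate 1, was the one with more Pdgfa and less Pdgfb; with 2 libraries a relation between these levels was not tested.

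Leaving out a Phf8oe library accordingly turned the sign of both ligand genes. Without Phf8oe replicate 1 the log2 fold change was -0.03 for Pdgfa (adjusted p = 0.918) and 0.05 for Pdgfb (adjusted p = 0.857). Without Phf8oe replicate 2 it was 0.51 for Pdgfa (adjusted p = 0.00635) and -0.91 for Pdgfb (adjusted p = 4.39e-05). In both fits the spread was measured between the ctrl libraries alone, so they differ in which Phf8oe library was kept. Pdgfc stayed lower throughout, at -1.15 without Phf8oe replicate 1 (adjusted p = 0.0055) and -0.59 without Phf8oe replicate 2 (adjusted p = 0.127). Pdgfra kept to the narrowest range of the 4, from -0.93 to -0.79.

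**Figure D2:**
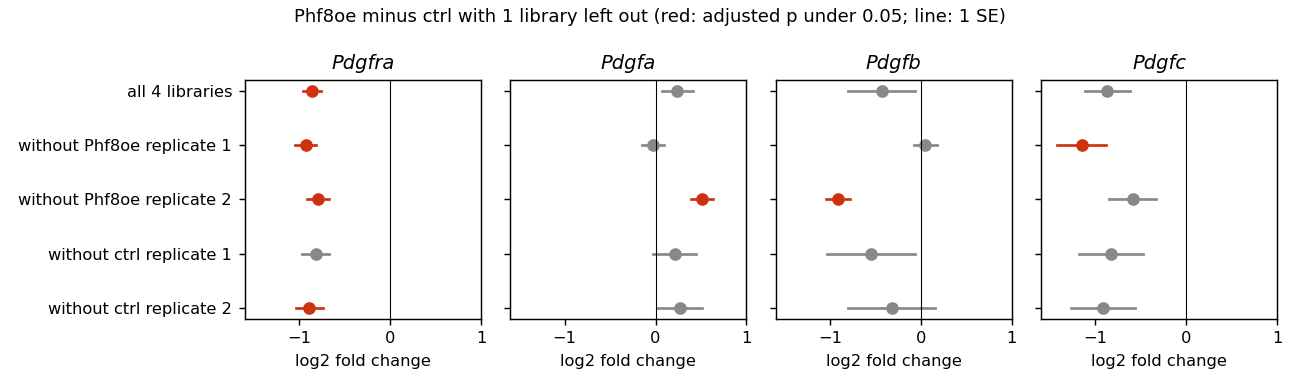
Log2 fold change of Phf8oe minus ctrl (horizontal axis) for each member with all 4 libraries and with 1 library left out at a time (rows); lines are 1 SE in each direction and red marks a limma adjusted p under 0.05. Pdgfra stays between -0.93 and -0.79, while Pdgfa moves between -0.03 and 0.51 and Pdgfb between -0.91 and 0.05, depending on which Phf8oe library is kept.

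Pdgfra lies between Kit, the gene of a closely related receptor, and Chic2 among tested genes in the order of GRCr8. Kit had 1492 and 1368 normalized counts in Phf8oe, against 1491 and 1047 in ctrl (log2 fold change 0.19, 95% interval -0.2 to 0.59, limma adjusted p = 0.516). Chic2 had 1105 and 1002 in Phf8oe, against 1172 and 1020 in ctrl (log2 fold change -0.06, 95% interval -0.34 to 0.23, limma adjusted p = 0.817). Both intervals exclude a fall as large as that of Pdgfra at -0.86. Beside Pdgfa, Fam20c, which encodes a kinase of secreted proteins, fell 1.78-fold, to 1502 and 1243 in Phf8oe against 2471 and 2387 in ctrl (limma adjusted p = 0.00735). Prkar1b on the other side of Pdgfa stood at a log2 fold change of 0.26. The neighbours of Pdgfb stood at -0.06 for Cbx7 and 0.36 for Rpl3, and those of Pdgfc at 0.43 for Glrb and -0.04 for Map9, none past the threshold. None of the 4 members overlapped another tested gene there.

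The genes whose pattern over the 4 libraries was most like that of Pdgfra were Slc41a2, Sdc3, Sgip1, Hmbox1 and AABR07019086.1. Likeness was the Euclidean distance between log2 profiles, each centred on its own mean, among 10969 genes with a mean of at least 100. The distances were 0.028 for Slc41a2, a magnesium transporter gene, 0.043 for Sdc3, which encodes the heparan sulfate proteoglycan syndecan-3, 0.069 for Sgip1, 0.074 for Hmbox1 and 0.085 for AABR07019086.1. Sdc3 had 9594 and 8971 normalized counts in Phf8oe, against 17369 and 16791 in ctrl. All 5 were lower in both Phf8oe libraries, which the choice by likeness fixes.

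The receptors nearest to the PDGF receptors by descent are those of the VEGF and KIT families. Their genes and those of their ligands were compared under the name VEGF and KIT relatives. The name claims no shared descent between these ligands and the PDGF ligands. Of 10 such genes tested, 1 fell and none rose: Kitlg, the ligand of Kit, dropped to 116 and 191 normalized counts in Phf8oe, against 1434 and 948 in ctrl, or 7.79-fold (log2 fold change -2.96, SE 0.3, limma adjusted p = 0.00641). The share called was thus 10%, near the 7.64% of all genes tested. The median log2 fold change of the 10 was 0.02, against 0.0 over all genes tested. Vegfa, the main endothelial growth factor, had 27859 and 16974 in Phf8oe, against 16608 and 28756 in ctrl, a wide gap between replicates in both groups (log2 fold change -0.01, and 0.04 with upper quartile scaling). Vegfb had 2814 and 2474 in Phf8oe, against 2114 and 2428 in ctrl, and did not pass (log2 fold change 0.22, limma adjusted p = 0.267). Thus a ligand gene changed without its receptor gene passing the test for Kitlg and Kit, and a receptor gene without its ligand genes passing for Pdgfra; a p that misses the threshold does not show that a gene was unchanged.

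**Figure D3:**
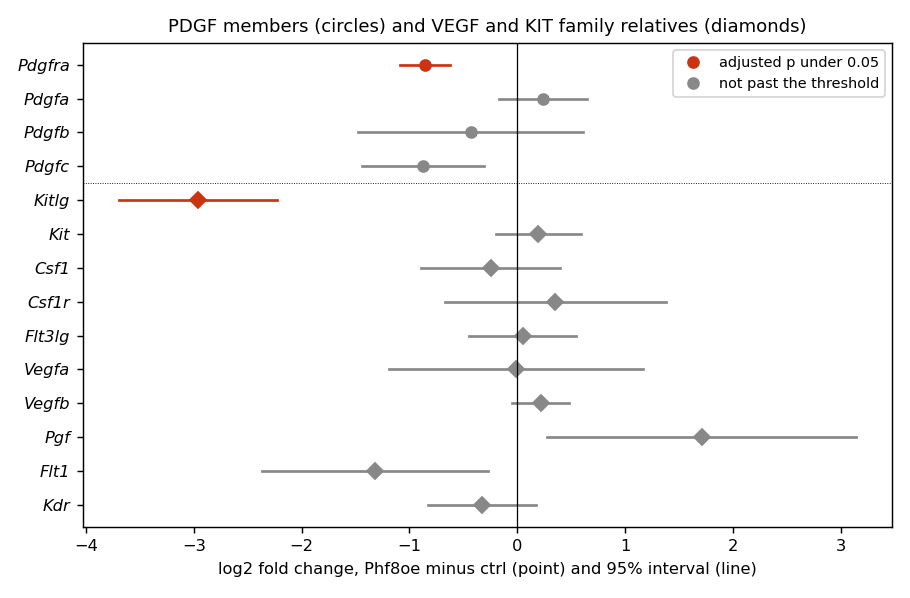
Log2 fold change of Phf8oe minus ctrl (horizontal axis) with its 95% limma interval (line) for the 4 PDGF members (circles, above the dotted line) and 10 VEGF and KIT family genes (diamonds). Red marks an adjusted p under 0.05, reached by Pdgfra at -0.86 and Kitlg at -2.96; the intervals of Pdgfa and Pdgfb include 0.

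Pathway genes were counted in lists ordered by role. Of 11 tested genes that process PDGF ligands or bind them, 2 fell and none rose, with a median log2 fold change of -0.32. That is 18.2% called, against 7.64% of all genes tested. Sparc, whose product binds PDGF dimers that hold the Pdgfb chain and keeps these from the receptor, fell 1.5-fold (limma adjusted p = 0.0131). It had 14786 and 15780 normalized counts in Phf8oe, against 23318 and 22629 in ctrl. Plat, the tissue plasminogen activator that cuts the Pdgfc product into its active form, had 730 and 658 in Phf8oe, against 995 and 993 in ctrl, and fell 1.43-fold (limma adjusted p = 0.0381; with upper quartile scaling 1 of the 11 was called). Lrp1, an endocytic receptor that PDGF signalling engages, had 20807 and 13090 in Phf8oe, against 18179 and 23247 in ctrl (log2 fold change -0.32). Serpine2, an inhibitor of plasminogen activators, stood at -0.03 (0.01 with upper quartile scaling). Neither passed.

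Of 43 tested genes that relay the signal inside the cell, 6 fell and none rose, with a median log2 fold change of -0.16. By sign alone 36 of the 43 lay lower and 7 higher, against 7133 lower and 7235 higher among all 14368 tested. Upper quartile scaling shifted the median of all genes tested from 0 to 0.05. Pik3r1, the regulatory subunit through which PI 3-kinase docks on the receptor, had 3242 and 3281 normalized counts in Phf8oe, against 5185 and 4908 in ctrl (1.55-fold, limma adjusted p = 0.00856). Stat3, a transcription factor activated by the receptor, had 9367 and 10148 in Phf8oe, against 16416 and 14843 in ctrl (1.6-fold, limma adjusted p = 0.00898). In both, the groups lay far apart compared with their replicates. The adaptor genes Nck2, Shc3 and Shc1 fell 1.62-fold, 2.13-fold and 1.3-fold, and the kinase gene Braf 1.5-fold. Shc1 and Braf passed narrowly (limma adjusted p = 0.0461 and 0.0471) and lost their calls with upper quartile scaling (0.0609 and 0.0585) and without robust moderation (0.0595 and 0.0599), which left 4 calls among the relays. Fyn, a kinase of the Src family prominent in oligodendrocytes, and Rac1, a small GTPase, had log2 fold changes of 0.04 and 0.02 and did not pass.

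Of 26 tested genes that restrain or clear the receptor, 3 fell and 1 rose, with a median log2 fold change of -0.03. That is 15.4% called, against 7.64% of all genes tested. Socs3, a feedback inhibitor of cytokine signalling, had 446 and 528 normalized counts in Phf8oe, against 1297 and 1076 in ctrl, and fell 2.43-fold (limma adjusted p = 0.00318). Cav1, the coat protein of caveolae, fell 2.08-fold, to 4781 and 5641 in Phf8oe against 11954 and 9777 in ctrl. Cbl, the ubiquitin ligase that marks activated PDGF receptors for breakdown, fell 1.64-fold, to 411 and 381 in Phf8oe against 634 and 666 in ctrl. Grb14, an adaptor that inhibits the insulin receptor, rose 1.52-fold. The phosphatase gene Ptprj and the endosomal sorting gene Hgs stood at -0.03 and -0.15 and did not pass; Ptprj was at 0.01 with upper quartile scaling.

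Among 24 genes that respond to growth factor medium in progenitors, 9 fell and none rose, and the median log2 fold change was -0.3. The share called was 37.5%, against 7.64% of all genes tested. Spry2, a feedback inhibitor of receptor tyrosine kinases, had 1117 and 1192 normalized counts in Phf8oe, against 2900 and 2551 in ctrl (2.36-fold, limma adjusted p = 0.00145). Fos, an AP-1 subunit, had 3022 and 4774 in Phf8oe, against 11584 and 9626 in ctrl, and fell 2.78-fold. The cell cycle gene Ccnd2 fell 1.68-fold, Dusp6, a phosphatase of ERK, 1.86-fold, Etv1 1.85-fold, Phlda1 1.87-fold, Fosl1 1.93-fold and Spry1 1.65-fold, and the ERK pathway inhibitor Spred1 fell too (log2 fold change -0.57). Myc and Ccnd1, which promote division, stood at 0.08 and -0.32 and did not pass. Both groups had been kept in differentiation medium for the same 3 days, and the part of the medium in these falls was not tested.

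The 6 pathway lists, from the VEGF and KIT relatives to the regulators described next, held 135 distinct tested genes and 24 calls, 22 of them lower. Without either ctrl library the Phf8oe pair was the sole measure of spread, and limma called fewer genes of these lists. Without either Phf8oe library the ctrl pair was the sole measure of spread, and it called more. The count of 1098 over all genes moved in the same directions. Because the pair that measures spread changes between these fits, they cannot tell which libraries the calls rested on. With upper quartile scaling, 609 genes were higher and 589 lower, in place of 430 and 668.

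Of 21 tested regulators linked to Pdgfra transcription or to the same lineage step, 1 fell and 1 rose. The median log2 fold change was -0.09, and the share called of 9.52% was near the 7.64% of all genes tested. Sox6, which together with Sox5 helps to keep Pdgfra expressed in mouse progenitors, had 4209 and 4191 normalized counts in Phf8oe, against 6321 and 6807 in ctrl, and fell 1.56-fold (limma adjusted p = 0.00824). Zfp488, a zinc finger gene that favours oligodendrocyte differentiation in mice, had 2169 and 1937 in Phf8oe, against 1272 and 1431 in ctrl, and rose 1.52-fold (limma adjusted p = 0.0202). Sox10 and Myrf, factors of the oligodendrocyte lineage, each had a log2 fold change of 0.11 and did not pass. Sox5 had 198 and 157 in Phf8oe, against 231 and 263 in ctrl, and Olig2 had 22151 and 18194 in Phf8oe, against 15146 and 16100 in ctrl; neither passed, and both were chosen after their values were seen.

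**Figure D4:**
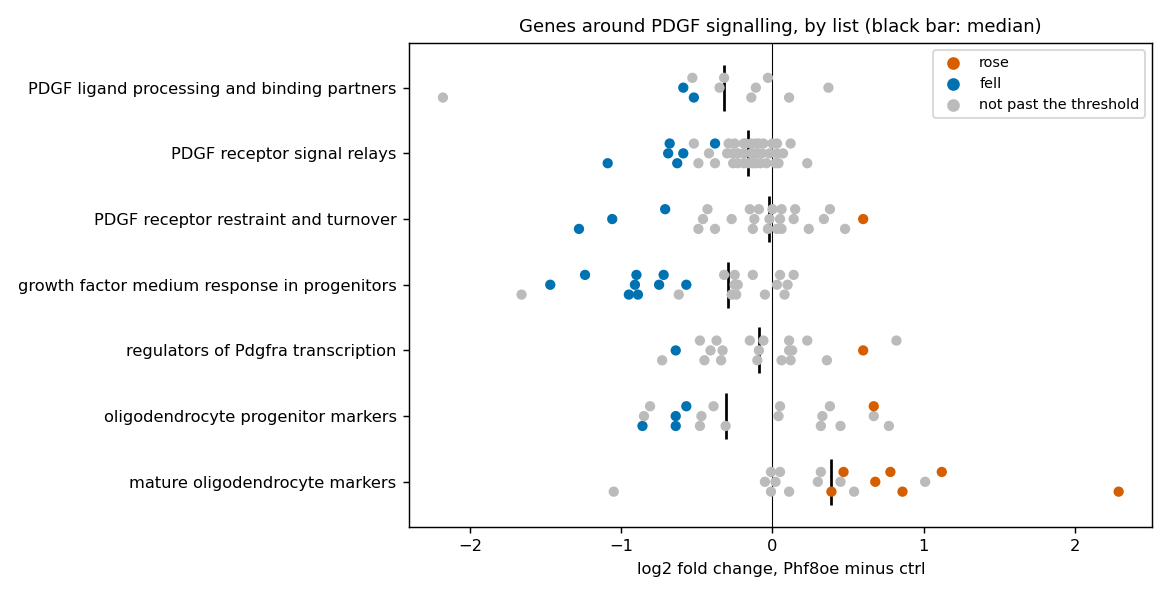
Log2 fold change of Phf8oe minus ctrl (horizontal axis) of every tested gene in 7 lists (rows); points are genes, coloured where the limma adjusted p was under 0.05 (orange rose, blue fell), and black bars are list medians. Medians lie between -0.32 and -0.03 in the 5 PDGF pathway lists drawn, at -0.31 for progenitor markers and at 0.39 for mature oligodendrocyte markers; Pdgfra is among the progenitor markers.

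Marker genes of the cell stages were set beside Pdgfra because the RNA comes from all cells of a culture: fewer Pdgfra-expressing cells and less Pdgfra RNA per cell cannot be told apart in these data. Of 19 tested progenitor markers, Pdgfra included, 4 fell, 1 rose and 14 did not pass, and their median log2 fold change was -0.31. That is 26.3% called, against 7.64% of all genes tested. The progenitor markers did not move together: by sign alone 10 lay lower and 9 higher. Among the higher were Cspg5 at 0.67 and Bcan at 0.45, neither past the threshold. The count of 5 calls was 0 without ctrl replicate 1 (limma), 1 without ctrl replicate 2, 10 without Phf8oe replicate 1 and 13 without Phf8oe replicate 2. Sox6, Sox11 (1.48-fold) and Gria3 (1.56-fold) fell with Pdgfra, and Bmp4 rose 1.59-fold. The proteoglycan gene Cspg4, whose product NG2 marks progenitors together with the receptor, had only 32 and 47 normalized counts in Phf8oe, against 79 and 60 in ctrl, and did not pass. The summed counts of the 19 were 196633 and 160963 in Phf8oe, against 200422 and 206007 in ctrl. Pdgfra is itself in these sums, with 10250 and 9286 in Phf8oe, against 18113 and 17240 in ctrl. Without Pdgfra the sums of the groups would overlap, so they do not show a lower progenitor sum apart from it. The 19 tested markers of mature oligodendrocytes had a median of 0.39 and sums of 678542 and 621723 in Phf8oe, against 429561 and 416771 in ctrl. Of these markers 7 rose and none fell, which is 36.8% called, against 7.64% of all genes tested. That count was 4 without robust moderation, 0 without ctrl replicate 1 and 1 without ctrl replicate 2. The summed mature markers were thus higher in both libraries in which Pdgfra was lower. Mbp held the largest share of the sums, with 340486 and 308875 in Phf8oe, against 184442 and 173338 in ctrl. By sign 15 of the 19 lay higher and 4 lower. Among the lower were Apod at -0.05 and Car2, a gene of few counts, at -1.05, neither past the threshold. The part of the mature markers in the fall of Pdgfra was not tested.

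Cells that make or receive PDGF in other tissues were looked for as well. Of 18 markers of pericytes, smooth muscle and fibroblasts 7 had a row, and these summed to 3163 and 3056 normalized counts in Phf8oe, against 2503 and 2712 in ctrl. Among the 6 tested, Col1a1 fell 3.15-fold and Postn and Foxd1 rose, which is 50% called, against 7.64% of all genes tested. For the astrocyte and neuronal markers below the shares called were 44.4% and 9.09%. Of 10 endothelial markers 5 had a row, summing to 3232 and 3158 in Phf8oe, against 2699 and 3292 in ctrl, most of it from Vwf; limma called 0 of the 5 (2 at an unadjusted p under 0.05, and 0 with limma-voom). Of 9 microglial markers 3 had a row, summing to 204 and 273 in Phf8oe, against 307 and 197 in ctrl. The 9 astrocyte markers with a row summed to 99570 and 99256 in Phf8oe, against 156657 and 173265 in ctrl, 2 of them rising and 2 falling, and 1 of 11 neuronal markers fell, with sums of 15946 and 16590 in Phf8oe, against 28948 and 23134 in ctrl. The lower astrocyte sum came from Gfap and Clu: without them the other 7 markers summed to 80372 and 72837 in Phf8oe, against 60391 and 70596 in ctrl. The neuronal sum without Tubb3 and Nefl, which differed most, was 13480 and 12181 in Phf8oe, against 16647 and 15652 in ctrl. These sums were added after the values were seen, and the part of such genes in the fall of Pdgfra was not tested. No marker with a row was at 0 in any library.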

How the data were processed

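RNA-seq libraries of 2 Phf8oe and 2 ctrl cultures were used. The submitters' processing notes name the tools STAR 2.5.2b, Trimmomatic 0.36, bcl2fastq 2.20 and DESeq2 and the builds Rnor_6.0 and rn6. How genes were counted, whether by strand, and which filter set the listed genes is not given in the sources used. The deposited signal is, per gene, a count divided by a library factor and rounded, which was read from the spacing of the values (1 read was worth 0.9548 and 1.4159 in Phf8oe, 0.8445 and 1.0176 in ctrl). A count model was therefore not used. Values of the 14368 of 14410 genes with at least 10 in at least 2 libraries were tested as log2(value + 1), so that fold changes of low genes are understated, with limma 3.58.1 in R 4.3.3 (group as the only term, trended robust moderation, two-sided, Benjamini-Hochberg, threshold 0.05). The procedure was also run on simulated data that gave both groups the same spread. The Phf8oe and ctrl replicates did not have the same spread for every gene, so that run does not measure the error here. Estimated reads are values divided by that of 1 read; reads are not independent molecules. The 4 sample files equalled their columns.

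The members and lists were chosen with earlier results of these data known. Named were the members, Phf8, up to 8 called and 2 abundant other genes of each pathway list, the 5 genes most like Pdgfra, and the tested neighbours of each member; others were chosen after their values were seen. Tables and figures were made in Python 3.11.15 (pandas 2.3.3, numpy 2.4.6, matplotlib 3.10.9).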

Additional observations from a re-analysis of the deposited data

How the results depend on the processing

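Pdgfra kept its sign under all 16 alternatives (adjusted p 1.67e-05 to 0.718) and its call in 13. Its value of -0.86 missed the threshold with no variance trend (adjusted p = 0.1) and in the test against a 1.5-fold change (0.718), and it ranged from -0.93 to -0.79 with 1 library left out. Such ranges were -0.03 to 0.51 for Pdgfa, -0.91 to 0.05 for Pdgfb and -1.15 to -0.59 for Pdgfc. With no variance trend limma called 0 genes (3133 at an unadjusted p under 0.05), and 0 in each of the 6 pathway lists (41 unadjusted over the lists); against a 1.5-fold change it called 27, and 0 in the lists (11 unadjusted). With 1 library left out the count over all genes ranged from 20 to 2145, and by list from 0 to 4 for ligand processing, 0 to 8 for relays, 0 to 6 for restraint, 0 to 3 for VEGF and KIT relatives, 0 to 6 for regulators and 0 to 12 for growth factor response. Upper quartile scaling left 1 call in ligand processing. The marker lists ranged from 0 to 13 calls for progenitors and 0 to 9 for mature oligodendrocytes with 1 library left out. The cause of a moved count was not tested. Small values that changed sign were, with upper quartile scaling, Serpine2 0.01, Ptprj 0.01, Vegfa 0.04 and Map9 0.01. With 1 library left out the ranges were -0.65 to 0.02 for Lrp1, -0.23 to 0.17 for Serpine2, -0.03 to 0.12 for Fyn, -0.16 to 0.1 for Ptprj, -0.4 to 0.39 for Vegfa, -0.06 to 0.28 for Myrf, -0.03 to 0.18 for Myc, -0.06 to 0.45 for Kit, -0.16 to 0.04 for Chic2 and -0.14 to 0.07 for Map9.

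The labels do not say whether libraries of the same replicate number belong together. Deviations of same-numbered libraries correlated at -0.126 across genes, which with 2 replicates in each group cannot settle it. With the replicate block 373 genes were called, with 1 in ligand processing, 3 in relays, 2 in restraint, 1 in regulators and 3 each in progenitor and mature markers, and Phf8 passed (adjusted p = 0.0313). With crossed pairing, chosen after seeing the data, 2354 were called, with 7 in restraint, 7 in regulators and 2 in VEGF and KIT relatives, and Pdgfc passed at -0.87.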
